A study of Bos taurus with 53 samples.

Results

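IFNT2 is a bovine gene for interferon tau, and it was described here as 1 of 24596 features in a table of exon read counts from day 14 cattle embryos. Its row was found by its symbol, but the gene was chosen with earlier results of these data known. The 53 messenger RNA libraries came from 30 embryos recovered from 7 recipient cows. In all groups the oocytes were matured in vitro, fertilised and cultured to blastocysts, which were transferred to synchronised cows and flushed on day 14. Oocytes of the CONTROL group were matured without fatty acids and without solvent. BASAL medium held 23 µM palmitic, 28 µM stearic and 21 µM oleic acid in 0.45% ethanol, and HIGH PA medium held 150 µM palmitic acid with the same stearic acid, oleic acid and ethanol. Embryos were tubular (17), ovoid (10) or spherical (3, all of them HIGH PA), and most were dissected into the embryonic disc (ED) and the extraembryonic tissue (EX). The 23 disc libraries comprised 12 BASAL, 8 HIGH PA and 3 CONTROL, and the 28 extraembryonic libraries comprised 14 BASAL, 10 HIGH PA and 4 CONTROL. A further 2 HIGH PA embryos were sequenced undissected (EX+ED). Fatty acids were present only during oocyte maturation, several embryos of a medium shared a cow, and all CONTROL embryos came from 1 cow.

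Interferon tau is a secreted type I interferon of ruminants, made by the trophectoderm, the outer epithelium that later forms the fetal part of the placenta. It acts on the uterine lining around the time the embryo elongates and is the signal by which the cow recognises the pregnancy. ETS2, DLX3, AP-1 proteins and CDX2 are factors known to act on its promoter, and it signals through the receptor subunits IFNAR1 and IFNAR2 and the kinases JAK1 and TYK2.

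In the deposited table IFNT2 (ENSBTAG00000047551) lies on chromosome 8 from 22607642 to 22634001 in build UMD3.1, with end minus start equal to the length. The model has 2 exons of 1177 bases in all, and a single intron takes up the other 25182 bases. In the RefSeq annotation of build ARS-UCD2.0 the neighbours of IFNT2 are IFNT3 on one side and IFN-tau-c1 on the other, each beyond a pseudogene, and the synonyms of IFNT2 include IFNT, IFNT1 and TP-1. Interferon tau genes are close copies of each other, so a read assigned to IFNT2 may come from another copy, and the values below are those of the row with this name. IFNT2 held 797965 exon reads over all libraries, of which 25 were not counted as uniquely placed. On the same chromosome 43 rows without a symbol lie among the interferon genes, and 14 of them had 0 reads. Their reads summed to 514, which is 0.0644% of those of IFNT2. IFNE, a type I interferon of epithelia, had 3 reads and IFNK had 0. Interferon tau genes are known to lack introns, so the deposited model may span more than 1 copy, and what the table counts as intron reads of IFNT2 may be reads of another copy. Those reads made up 10.7% to 22.1% of the reads of the row in the 47 libraries with at least 100 exon reads.

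Depth ran from 6814 to 19533821 exon reads. The libraries labelled ED BASAL replicate 7 (6814 reads) and EX BASAL replicate 7 (9810 reads) are left out of the levels below and kept in the fits. Levels are given as CPM, the exon reads of IFNT2 per 1000000 exon reads of the library, and intervals and floors cover counting error only. The library labelled ED BASAL replicate 12 stood apart from the other discs. It had the lowest sums among discs of 4 epiblast markers (95.2 CPM) and of 7 streak and mesoderm markers (3.60 CPM). Its epiblast sum was DNMT3B alone, with 0 reads of SOX2, NODAL and PRDM14, and the median extraembryonic library had 77.8 CPM of DNMT3B. Disc results are therefore also given without this library. The names of 7 extraembryonic libraries carry a mark 2 that the labels do not explain.

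By its median place IFNT2 was among the most abundant messages of both tissues. In 27 extraembryonic libraries its lowest, median and highest levels were 47.7, 2875 and 9740 CPM, and in 22 discs they were 58.8, 1355 and 2994 CPM. The ranges overlapped, and within each tissue the gene varied 204-fold and 50.9-fold between its lowest and highest library. Ranked by reads per kilobase of exon (RPKM), IFNT2 had a median place of 36 among all features in extraembryonic tissue, and its best place was 5. In discs its median place was 110.5. Its worst place was 2388 in extraembryonic tissue, in a spherical library, and 2198 in discs. The highest library, EX HIGH PA replicate 7, gave 0.974% of all its exon reads to this gene.

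The order of the group medians ran from spherical embryos to tubular extraembryonic tissue, with discs and ovoid extraembryonic libraries mixed in between. The lowest were the undissected spherical embryo (71.1 CPM), the 2 spherical extraembryonic libraries (47.7 and 247 CPM) and the undissected ovoid embryo (171 CPM). Next came ovoid HIGH PA discs with 58.8, 120, 674 and 1610 CPM, the ovoid CONTROL extraembryonic library with 659 CPM, and ovoid HIGH PA extraembryonic libraries with 454, 918, 921 and 3459 CPM. CONTROL discs, all tubular, had 1134, 1271 and 2994 CPM. Ovoid BASAL discs had 693, 1335, 1886 and 2703 CPM, and 7 tubular BASAL discs ran from 522 through a median of 1682 to 2518 CPM. Tubular HIGH PA discs had 356, 1375, 2086 and 2654 CPM. All these groups overlapped with their neighbours in the order. Ovoid BASAL extraembryonic libraries followed with 2242, 2315, 2323 and 2605 CPM, below and without overlap with tubular CONTROL extraembryonic libraries at 2760, 2875 and 4101 CPM. Above them, 9 tubular BASAL extraembryonic libraries ran from 1851 through a median of 3071 to 4825 CPM. Tubular HIGH PA extraembryonic libraries were at the top with 3610, 3616, 4958 and 9740 CPM, overlapping the group before.

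**Figure D1:**
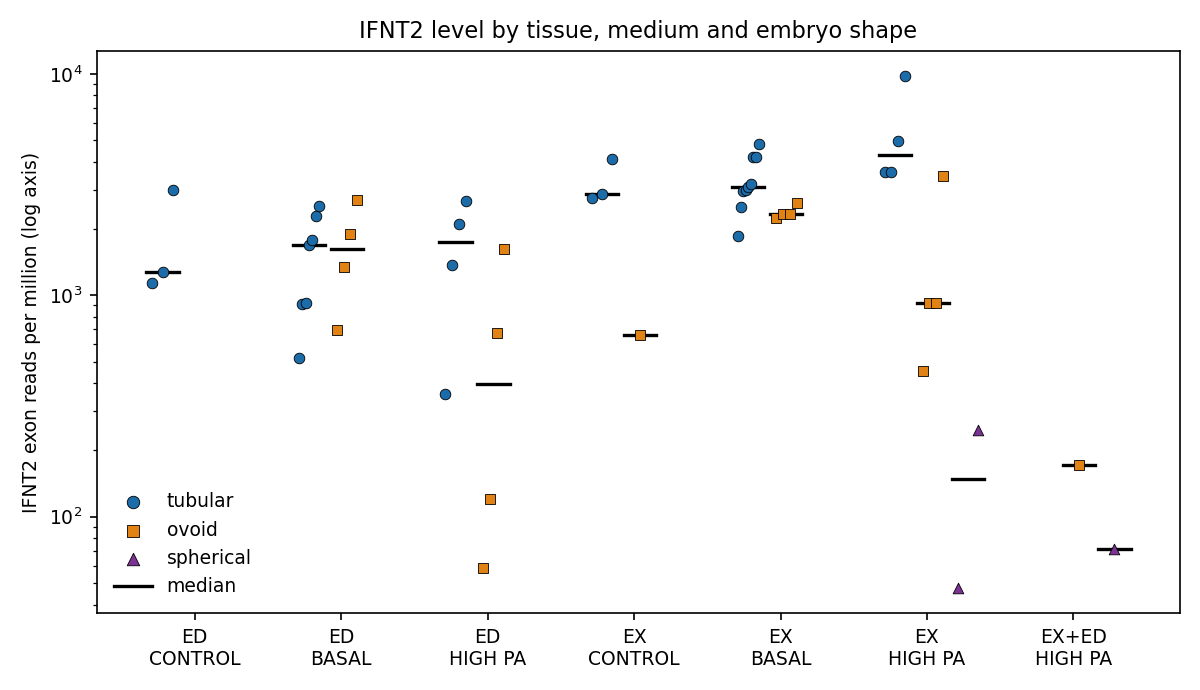
IFNT2 CPM on a log axis for each library of at least 10000 reads, by tissue (ED disc, EX extraembryonic, EX+ED undissected) and medium, with embryo shape as colour and marker and group medians as bars. The tubular extraembryonic libraries lie between 1851 and 9740 CPM, and the 2 spherical ones at 47.7 and 247 CPM.

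Extraembryonic tissue held more IFNT2 message than the disc of the same embryo. Of 22 embryos with both parts above 10000 reads, 20 had the higher level in the extraembryonic part, with a median ratio of 2.32 and a range from 0.570 to 27.3. All 14 tubular embryos were among the 20. Both exceptions were ovoid: the embryo of ED HIGH PA replicate 7 had 1610 CPM in the disc and 918 CPM outside it, and that of ED BASAL replicate 12 had 2703 and 2315 CPM. The disc library of the latter is the one without reads of SOX2, NODAL and PRDM14. The widest ratio belonged to the tubular embryo of ED HIGH PA replicate 3, with 356 CPM in the disc and 9740 CPM outside it. In the edgeR quasi-likelihood fit with the embryo as a block, over all 23 embryos with both parts, IFNT2 was 2.84-fold higher outside the disc (log2 difference 1.51, SE 0.244, adjusted p = 5.38e-06). Of the genes tested, 55.7% were called in this comparison and 24.2% were called higher and 31.5% lower, so a call alone does not set IFNT2 apart. The log2 difference was 1.31 within BASAL (adjusted p = 0.000461), 2.04 within HIGH PA (adjusted p = 0.00718), 1.58 within tubular (adjusted p = 2.13e-05) and 1.34 within ovoid embryos (adjusted p = 0.0254). Without the embryo of ED BASAL replicate 12 it was 1.58. The tissues were extracted with different kits per the labels, which cannot be told apart from tissue, and of the plate rows only row B held both (11 discs and 1 extraembryonic library). Lane and depth differed as well. Lanes 1, 2 and 3 held 10, 10 and 2 discs, and lanes 1, 2, 3, 4 and 8 held 2, 1, 8, 12 and 4 extraembryonic libraries. Median depth was 2.45e+06 exon reads in discs and 7.73e+06 outside them. Without libraries under 1000000 reads the log2 difference was 1.31, and lane as a term was not tested here.

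**Figure D2:**
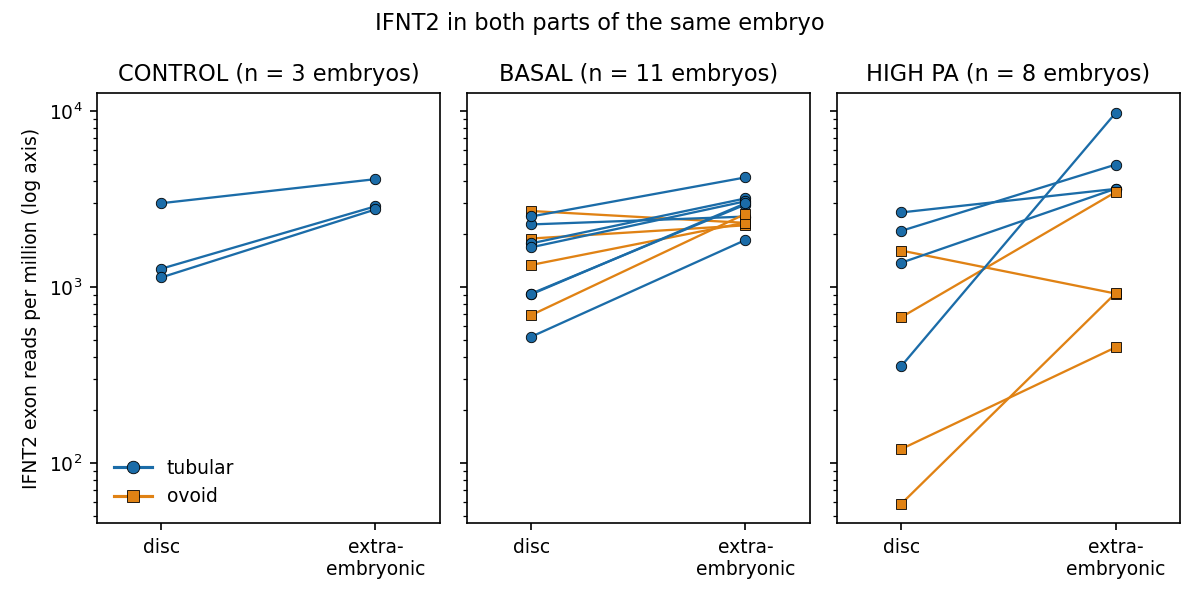
IFNT2 CPM on a log axis in the disc and in the extraembryonic part of the same embryo, 1 line for each of 22 embryos, by medium and shape. The line falls in 2 ovoid embryos and goes up in the other 20, from 1.11-fold to 27.3-fold.

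Markers of other cell types moved with tissue as well. Of 11 trophectoderm markers 10 were in the table and tested, and 7 of them rose outside the disc, against 24.2% of all genes. All 10 had reads in discs, where their sum ran from 6838 to 17539 CPM, against 13409 to 28472 CPM in extraembryonic libraries. In the 22 pairs the ratio of this sum had a median of 1.31. Set against the trophectoderm markers, IFNT2 amounted to a median of 100.0 reads per 1000 marker reads in discs and 182 in extraembryonic tissue, and this quantity was higher outside the disc in 19 of 22 embryos. Set against the 8 markers other than the keratins it was also higher outside the disc in 19 of 22, with a median ratio of 1.70. In bulk samples fewer cells of a type and less RNA per cell cannot be told apart. Of 10 maternal cell markers 6 were in the table, and their sum ran from 0 to 6.38 CPM in extraembryonic libraries and reached 43.6 CPM in discs. PTPRC, HBB and OXTR had 0 reads in the extraembryonic libraries used for levels. In discs CD74 alone reached 42.9 CPM and CD14 reached 10.5 CPM. Of 22 discs, HBB had 0 reads in 22, PTPRC in 20, CD3E in 18 and OXTR in 16. All 4 epiblast, 7 streak and mesoderm and 9 hypoblast markers tested fell outside the disc, against 31.5% of all genes.

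Across the 22 discs IFNT2 was lower where the summed CPM of the epiblast markers SOX2, NODAL, PRDM14 and DNMT3B was higher. DNMT3B made up most of this sum in every disc, so the sum stands mainly for DNMT3B, which also had reads outside the disc. SOX2 alone had a Spearman's rho of -0.64 and a Pearson's r of -0.46 with IFNT2, and NODAL and PRDM14 were not tested alone. For the sum, Pearson's r on the log2 scale was -0.57 (permutation test with 100000 resamples, two-sided, p = 0.00052, 0.00312 adjusted over 6 relations with both coefficients). Spearman's rho for the sum was -0.72 (permutation p = 0.00024, adjusted p = 0.00288). Without the 2 libraries farthest from the median r was -0.59. Without ED BASAL replicate 12, which had the lowest epiblast sum and 2703 CPM of IFNT2, r was -0.59 (permutation p = 0.00264) and rho -0.69 (permutation p = 0.00084) over 21 discs. Within lanes 1 and 2, which held 10 discs each, r was -0.56 and -0.62, and lane 3 held only 2. Both quantities share the depth and total of the library, and IFNT2 in discs also went with depth (r = 0.75, permutation p = 0.00196, adjusted p = 0.00784). That relation was 0.96 in the 8 HIGH PA discs and 0.10 in the 11 BASAL discs, so the pooled value rests on HIGH PA. The lowest 2 discs were ED HIGH PA replicate 5, with 7 IFNT2 reads among 119116 (58.8 CPM, 95% exact binomial interval 23.6 to 121), and ED HIGH PA replicate 1, with 65 among 540818. The levels of the 2 parts of an embryo were not clearly related over 22 embryos (r = 0.50, permutation p = 0.0338, adjusted p = 0.0579; rho = 0.32, permutation p = 0.145, adjusted p = 0.145). The r was -0.12 within 14 tubular and 0.62 within 8 ovoid embryos. IFNT2 and the summed trophectoderm markers had r = 0.37 (permutation test, adjusted p = 0.139) and rho = 0.37 (adjusted p = 0.106) in discs. In 25 extraembryonic libraries, without the spherical ones, r was -0.36 (adjusted p = 0.106) and rho -0.41 (adjusted p = 0.0629). None of these passed the threshold.

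**Figure D3:**
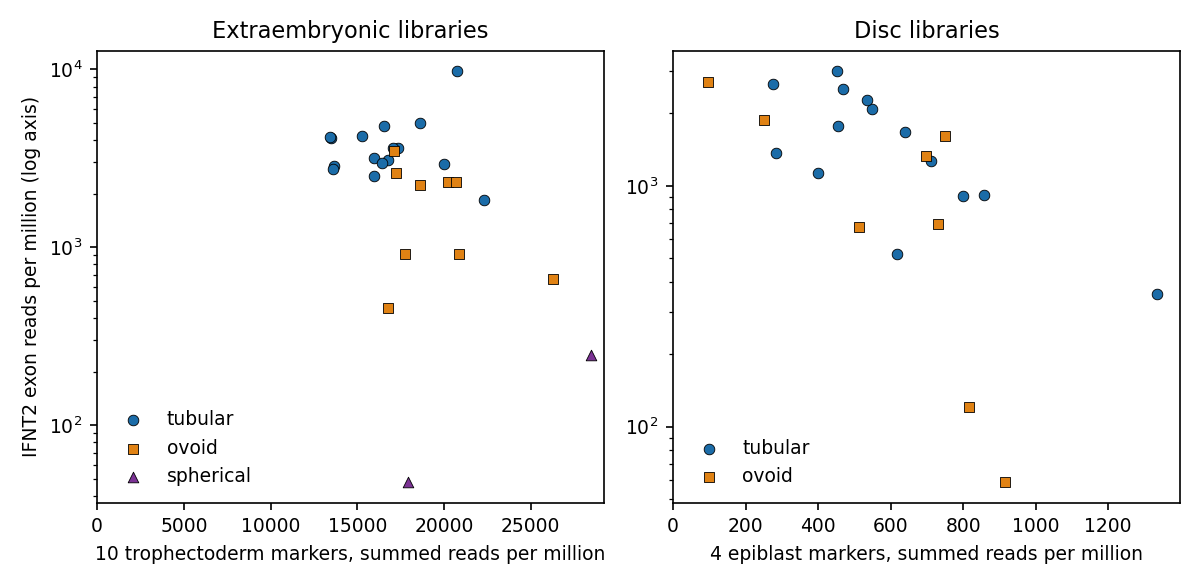
IFNT2 CPM (log axis) against the sum of 10 trophectoderm markers in 27 extraembryonic libraries (left) and against the sum of 4 epiblast markers in 22 discs (right), by shape. The spherical library with 47.7 CPM of IFNT2 has 17916 CPM of trophectoderm markers, inside the range of tubular libraries (13409 to 22300 CPM).

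Extraembryonic IFNT2 was lower in ovoid than in tubular embryos and lowest in spherical ones, with overlap between the first 2 shapes. In 16 tubular libraries the lowest, median and highest levels were 1851, 3399 and 9740 CPM. In 9 ovoid libraries they were 454, 2242 and 3459 CPM, with 4 of the 9 below every tubular library and the other 5 inside the tubular range. The 2 spherical libraries, with 47.7 CPM from 51 reads (95% exact binomial interval 35.5 to 62.8) and 247 CPM from 84 reads (197 to 306), were below all others. With medium and sex as terms, edgeR gave a 2.20-fold lower level in ovoid than in tubular embryos (log2 difference -1.14, SE 0.293, adjusted p = 0.0198), where 11.4% of the genes were called, 5.41% lower and 5.94% higher. With medium as a term, spherical embryos were 16.1-fold lower than ovoid ones (log2 difference -4.01, SE 0.807, adjusted p = 0.00402), where 7.33% were called, 3.23% lower and 4.1% higher.

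The direction of the ovoid difference was the same in all 30 alternatives, and its call was lost in 9. In this comparison 0 of 11880 genes were called with the recipient cow as a block, 0 with the lane as a term and 3 without cow 813, so the calls of other genes between ovoid and tubular extraembryonic tissue given below are also lost with the cow or the lane in the fit. With the recipient cow as a block it was -1.01 (adjusted p = 0.284), with the sequencing lane as a term and without spherical embryos -0.70 (adjusted p = 0.163), within BASAL -0.57 (adjusted p = 0.178) and within HIGH PA -1.67 (adjusted p = 0.264). The mark 2 was on 5 of the 9 ovoid and 1 of the 16 tubular libraries. Among unmarked ones the 4 ovoid libraries ran from 454 to 2605 CPM and the 15 tubular ones from 1851 to 9740 CPM, with a log2 difference of -1.24 (adjusted p = 0.103). Without cow 07 the adjusted p was 0.0627, without cow 66 0.0968 and without cow 813 0.214. The spherical difference rests on 2 libraries: without EX HIGH PA replicate 10 it was -3.20 (adjusted p = 0.0823), without replicate 9 -5.60 (adjusted p = 0.00597). Both were the only extraembryonic libraries in lane 1, so shape and lane cannot be told apart there. Depth also differed with shape, with medians of 8.50e+06 exon reads in tubular, 5.62e+06 in ovoid and 704212 in spherical extraembryonic libraries. Over the 25 that were not spherical IFNT2 went with depth (r = 0.47, permutation p = 0.0224, adjusted p = 0.0449). The r was 0.06 within tubular, 0.45 within ovoid, 0.06 within BASAL and 0.82 within HIGH PA libraries. Depth as a term was not tested.

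The low level in spherical and ovoid embryos was not shared by the trophectoderm markers as a list. The keratins KRT8 and KRT18 made up 93.2% to 96.6% of this sum in extraembryonic libraries, so it stands mainly for them. The sum ran from 16764 to 26305 CPM in ovoid, was 17916 and 28472 CPM in spherical, and ran from 13409 to 22300 CPM in tubular extraembryonic libraries. Per 1000 reads of these markers IFNT2 had a median of 209 reads in tubular and 112 in ovoid libraries, and 2.66 and 8.68 reads in the spherical ones. Without the keratins the other 8 markers summed to a median of 843 CPM in tubular and 995 CPM in ovoid libraries and to 1111 and 1462 CPM in spherical ones. Per 1000 reads of these 8 IFNT2 had a median of 3993 reads in tubular and 1719 in ovoid libraries, and 42.97 and 169 in the spherical ones. Of the 10 markers tested between ovoid and tubular embryos, GATA2 and ELF5 rose and PPARG fell. Over all genes 5.94% were called higher and 5.41% lower there. The list's median log2 difference was 0.06, against 0.00 over all genes. PPARG, a nuclear receptor for lipid ligands, fell by 1.33 on the log2 scale (SE 0.337, edgeR adjusted p = 0.0188), with medians of 21.8 CPM in tubular and 9.03 CPM in ovoid libraries. GATA2 had medians of 257 and 408 CPM (log2 difference 0.56, edgeR adjusted p = 0.0104), and 669 CPM in spherical libraries. Of 9 hypoblast markers GATA4 and PDGFRA rose in ovoid embryos, where 5.94% of all genes were called higher. SOX2 had 0 reads in 26 of the 27 extraembryonic libraries, and its highest level was 0.356 CPM in an ovoid library.

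Discs gave no such call. Their 14 tubular libraries had a lowest, median and highest level of 356, 1529 and 2994 CPM and the 8 ovoid ones of 58.8, 1014 and 2703 CPM, so the groups overlapped over most of their range. The log2 difference was -0.68 (SE 0.452, 95% interval -1.57 to 0.21, edgeR adjusted p = 0.772). It was -0.02 within BASAL and -1.10 within HIGH PA, -0.34 without cow 72 and -0.34 without libraries under 1000000 reads, and -0.45 without ED HIGH PA replicate 5. Without ED BASAL replicate 12 it was -0.85. Of 11040 genes 0 were called by edgeR (0%), 17 by DESeq2, and 806 had an unadjusted p under 0.05. The shape effect was not shown to differ between tissues: the tissue by shape term was -0.24 (SE 0.514, adjusted p = 0.827), where 0.26% of genes were called and 0.0407% with a negative term.

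The media compare embryos from oocytes exposed to raised palmitic acid with those from a physiological fatty acid mix. No medium comparison called IFNT2. In extraembryonic tissue 13 BASAL libraries had a lowest, median and highest level of 1851, 2941 and 4825 CPM (mean 3019 ± 886, SD), and 10 HIGH PA libraries of 47.7, 2190 and 9740 CPM. HIGH PA thus held both ends of the range, and the ranges overlapped. Its low end was the spherical libraries (47.7 and 247 CPM), a shape found only in HIGH PA, and its lowest ovoid library had 454 CPM. The fit below had medium and sex but no shape as terms. The log2 difference was -0.37 (SE 0.497, 95% interval -1.35 to 0.60, edgeR adjusted p = 1), and 0 of 11114 genes (0%) were called by edgeR, 0 by DESeq2, with 551 at an unadjusted p under 0.05. Its sign changed with shape as a term (0.00) and within tubular embryos, where it was 0.57 (unadjusted p = 0.0757, adjusted p = 0.666). It was -1.47 with the flush as a correlated block in limma-voom (unadjusted p = 0.0272, adjusted p = 1) and -0.71 with the cow as a block in edgeR (adjusted p = 0.838). The 4 tubular HIGH PA libraries were all male, and 4 of the 9 tubular BASAL libraries were female. The 5 male tubular BASAL libraries ran from 3071 through a median of 4186 to 4825 CPM, against 3610 to 9740 CPM in the 4 of HIGH PA, and overlapped with them.

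In discs 11 BASAL libraries had a lowest, median and highest level of 522, 1682 and 2703 CPM (mean 1564 ± 749, SD) and 8 HIGH PA libraries of 58.8, 1025 and 2654 CPM. The HIGH PA range took in all BASAL levels but the highest and reached lower. The log2 difference was -0.83 (SE 0.504, 95% interval -1.82 to 0.16, edgeR adjusted p = 0.629), where 0 of 11040 genes (0%) were called by edgeR, 2 by DESeq2, with 1004 at an unadjusted p under 0.05. Within tubular embryos it was 0.01 (adjusted p = 0.999), without libraries under 1000000 reads -0.46 (adjusted p = 0.697), and without ED BASAL replicate 12 -0.72. With the flush as a correlated block in limma-voom it was -1.39 (unadjusted p = 0.0278, adjusted p = 0.677), and with the cow as a block in edgeR -0.52.

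The solvent and fatty acid mix of BASAL was set against CONTROL. CONTROL extraembryonic libraries had 659, 2760, 2875 and 4101 CPM, the lowest from the ovoid embryo, and CONTROL discs had 1134, 1271 and 2994 CPM. BASAL minus CONTROL was 0.66 on the log2 scale in extraembryonic tissue (SE 0.638, edgeR adjusted p = 0.885) and 0.20 in discs (SE 0.679, adjusted p = 1). HIGH PA minus CONTROL was 0.28 in extraembryonic tissue (SE 0.627, adjusted p = 0.893) and -0.63 in discs (SE 0.633, adjusted p = 1). In each of the 4 comparisons 0% of genes were called by edgeR. DESeq2 called 1 gene in each extraembryonic comparison and 0 in discs, and 375 (BASAL) and 1075 (HIGH PA) extraembryonic and 379 and 465 disc genes had an unadjusted p under 0.05. Single CONTROL libraries moved these values: the disc difference of HIGH PA was -0.00034 and that of BASAL 0.82 without ED CONTROL replicate 3, and BASAL was -0.043 or -0.027 without replicate 1 or 2. Without ED BASAL replicate 12 the disc difference of BASAL was 0.085. The extraembryonic difference of HIGH PA was 0.04 and that of BASAL 0.33 without EX CONTROL replicate 4, the ovoid one, and HIGH PA was 0.54 without replicate 2. The groups overlapped in all 4, and CONTROL cannot be told apart from its cow.

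Whether the difference between the tissues depends on the medium was tested in the paired embryos. The gap between extraembryonic tissue and disc was 1.03 wider in HIGH PA than in BASAL on the log2 scale (SE 0.553, unadjusted p = 0.0724, edgeR adjusted p = 1), which does not pass the threshold. In that test 0 of 12291 genes (0%) were called by edgeR and 0 by DESeq2, and 377 had an unadjusted p under 0.05. The median ratio between the parts was 1.80 in 11 BASAL embryos (0.856 to 3.76), 2.26 in 3 CONTROL embryos and 3.20 in 8 HIGH PA embryos (0.570 to 27.3).

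Ovoid and tubular extraembryonic libraries lay closer together in BASAL than in HIGH PA, a pattern chosen for a test after the values were seen. The medians were 2319 and 3071 CPM in BASAL and 920 and 4287 CPM in HIGH PA. The shape by medium term was -1.20 (SE 0.610, unadjusted p = 0.0618, edgeR adjusted p = 0.904), with 0 of 11087 genes (0%) called by edgeR, 2 by DESeq2 and 614 at an unadjusted p under 0.05. The ovoid library labelled EX HIGH PA replicate 6, with 3459 CPM, weighed on it: without that library the term was -2.25 (unadjusted p = 0.00016, adjusted p = 0.441), and without the libraries marked 2 it was -3.32 (adjusted p = 0.193). Without EX HIGH PA replicate 5 it was -0.87 and without EX BASAL replicate 12 -0.97. In discs the term was -1.21 (SE 0.918, adjusted p = 1), with 0 of 10915 genes (0%) called by edgeR, 0 by DESeq2 and 219 at an unadjusted p under 0.05. It was -2.22 without ED HIGH PA replicate 7, -0.42 without libraries under 1000000 reads and -0.98 without ED BASAL replicate 12.

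Female embryos had lower medians in both tissues, and neither difference passed the threshold. In extraembryonic tissue 8 female libraries had a lowest, median and highest level of 47.7, 2182 and 2990 CPM and 18 male ones of 454, 3323 and 9740 CPM. The log2 difference, female minus male, was -1.04 (SE 0.508, unadjusted p = 0.05, edgeR adjusted p = 0.615), where 0.918% of genes were called and 0.288% were called lower. In discs 6 female libraries had 58.8, 801 and 2268 CPM and 16 male ones 120, 1646 and 2994 CPM, with a log2 difference of -1.18 (SE 0.551, unadjusted p = 0.0417, adjusted p = 0.584), where 0.0543% were called, and -1.05 without ED BASAL replicate 12. The groups overlapped in both tissues. The fits had no shape term, and the female extraembryonic library with 47.7 CPM was spherical. Within tubular BASAL extraembryonic tissue 4 female libraries (1851 to 2990 CPM) lay below 5 male ones (3071 to 4825 CPM). In ovoid BASAL the 1 female library (2605 CPM) lay above 3 male ones (2242 to 2323 CPM). Tubular BASAL discs overlapped, with 522 to 2268 CPM in 4 females and 1682 to 2518 CPM in 3 males.

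**Figure D4:**
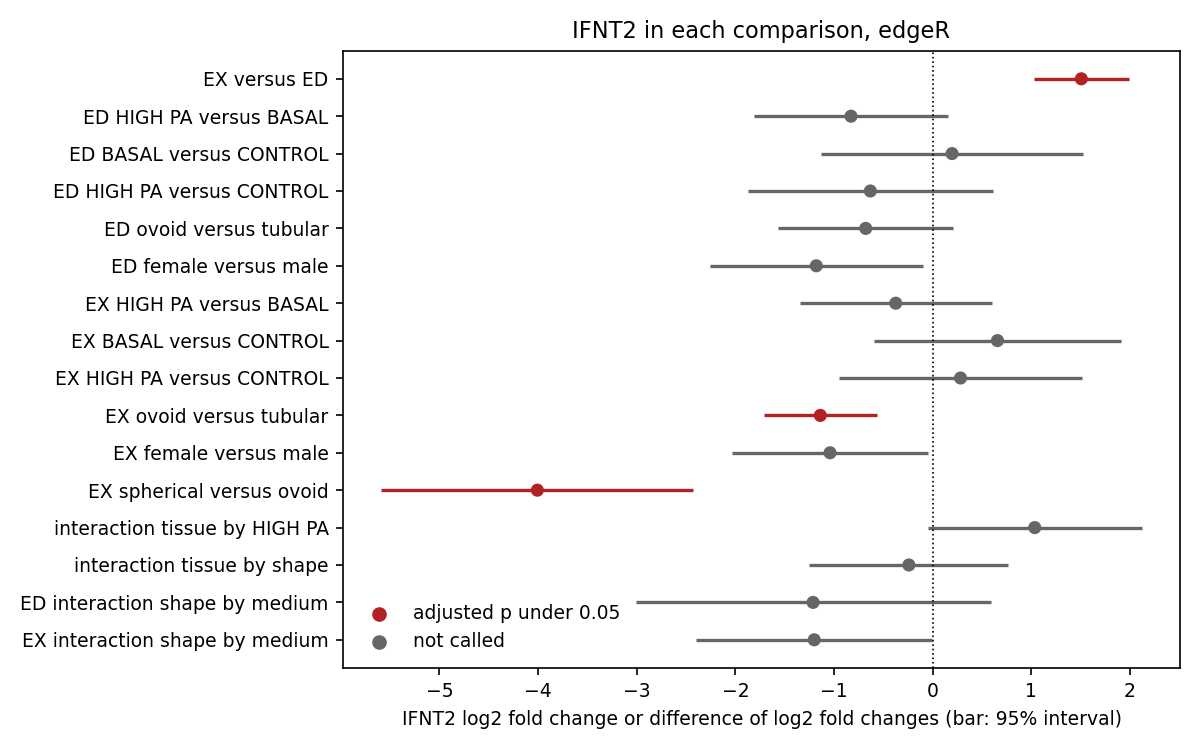
Log2 fold change of IFNT2 from edgeR for 12 comparisons, and differences of log2 fold changes for 4 interaction terms, with bars of the 95% interval and calls at an adjusted p under 0.05 in red. The called values are 1.51 for tissue, -1.14 for ovoid and -4.01 for spherical extraembryonic samples.

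Factors known to act on interferon tau promoters or on trophectoderm fate were read beside it. Of 20 listed, 17 were in the table and 16 were tested between the tissues, where 8 rose and 2 fell outside the disc (24.2% and 31.5% of all genes), with a median log2 difference of 0.39 against -0.02 over all genes. CDX2, JUND and POU5F1 are not analysed here. ETS2, the Ets factor that binds the interferon tau promoter, had 75.8 CPM in the median disc and 128 CPM in the median extraembryonic library (log2 difference 0.90, SE 0.095, edgeR adjusted p = 2.78e-09). The AP-1 subunit FOS rose by 1.05 (adjusted p = 7.25e-06) and TFAP2C, an AP-2 factor of trophectoderm, by 0.82 (adjusted p = 6.01e-07). DLX3, a homeobox factor that acts on the interferon tau promoter, rose by 0.61 (adjusted p = 0.000361). The 2 that fell were EOMES, which is also among the streak and mesoderm markers, and CREBBP. Their log2 differences were -9.31 (edgeR adjusted p = 1.44e-22) for EOMES and -0.37 (adjusted p = 0.00324) for CREBBP. GATA2 and GATA3, zinc finger factors of trophectoderm, were at 0.22 and 0.27 and did not pass (adjusted p = 0.125 and 0.0943).

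Across shapes other factors were called. Of 15 tested between ovoid and tubular extraembryonic tissue 3 rose (GATA2, ELF5 and JUNB) and 0 fell, where 5.94% of all genes were called higher and 5.41% lower, with a median log2 difference of 0.06 against 0.00 over all genes. GATA2 and ELF5 are also among the trophectoderm markers. ETS2 had medians of 136 CPM in tubular and 116 CPM in ovoid libraries (log2 difference -0.07, SE 0.254, edgeR adjusted p = 0.889), and 48.7 and 138 CPM in the spherical ones. Between spherical and ovoid embryos ELF5, an Ets factor of trophoblast, rose by 2.10 on the log2 scale (adjusted p = 0.000546), with 8.82 and 26.2 CPM in the spherical libraries against 2.32 to 6.18 CPM in ovoid ones. In the HIGH PA and BASAL comparison 0 of 16 disc and 0 of 15 extraembryonic factors were called by edgeR, as were 0% of all genes in each tissue.

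Of the receptor subunits, IFNAR2 was nearly without reads. IFNAR2, the subunit that binds interferon with higher affinity, had 1 read over all 28 extraembryonic libraries, which hold 208106764 exon reads, and 3 reads over the 23 discs. IFNAR1 had 9.01 CPM in the median extraembryonic library and 15.02 CPM in the median disc, and fell by 0.62 outside the disc (SE 0.185, edgeR adjusted p = 0.00514). Of 9 receptor and signalling genes tested between the tissues 0 rose and 3 fell (IFNAR1, the kinase TYK2 and the phosphatase PTPN6), near the share of 31.5% of all genes called lower there. JAK1 differed by 0.14 between the tissues (adjusted p = 0.247) and fell by 0.53 in ovoid against tubular extraembryonic tissue (adjusted p = 0.0172), the only one of 9 called there, near the share of 11.4% over all genes. USP18 is not analysed here.

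Few of the genes that type I interferon induces in many cells had enough reads to test. Of 28 listed, 23 were in the table and 9 passed the filter on low values between the tissues. ISG15, a ubiquitin-like protein, had 10 reads in all extraembryonic and 10 in all disc libraries. CXCL10 and OAS2 had 0 reads in the 28 extraembryonic libraries, which allows up to 0.0144 CPM over their summed depth. MX1 is not analysed here. Of the 9 tested, 6 fell outside the disc, where 31.5% of all genes were called lower, among them IRF1 with a log2 difference of -5.71 (edgeR adjusted p = 1.11e-14) and a median of 11.1 CPM in discs and 0.127 CPM outside them. IRF7, a transcription factor for interferon genes, rose by 0.86 (SE 0.164, adjusted p = 4.82e-05), with medians of 18.3 and 24.3 CPM. In spherical against ovoid embryos 1 of 6 tested was called, where 7.33% of all genes were called and 4.1% were called higher. It was DDX58, a sensor of viral RNA, which rose by 3.32 on the log2 scale (adjusted p = 0.00326). Its levels were 2.94 and 9.36 CPM in the spherical and 0.0774 to 1.29 CPM in the 9 ovoid libraries.

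Other secreted or hormone-related products of trophoblast were few in the table: 4 of 17 listed. PTGS2, the enzyme that starts prostaglandin synthesis, fell by 2.69 on the log2 scale in ovoid against tubular extraembryonic tissue (SE 0.518, edgeR adjusted p = 0.00467). This call was lost with the cow as a block or the lane as a term, where 0 genes were called. Its lowest, median and highest levels were 342, 1455 and 7231 CPM in 16 tubular and 137, 383 and 906 CPM in 9 ovoid libraries, which overlap. The highest levels, 7231, 6914 and 6672 CPM, belonged to EX HIGH PA replicates 7 and 8 and EX BASAL replicate 8. All of these were in lane 8, which held no ovoid library. The spherical libraries, lowest in IFNT2, had 1127 and 1562 CPM of PTGS2, above all ovoid ones. PTGES, which makes prostaglandin E2, rose by 1.14 outside the disc (adjusted p = 0.000105).

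The genes whose levels were most like those of IFNT2 over the 27 extraembryonic libraries, by Spearman's rho of log2 CPM among 9742 genes, were PRR15 (0.84), SCARB1 (0.83), FABP5 (0.82), AGR3 (0.80) and MGST1 (0.80). Without the spherical libraries the same 5 had rho from 0.75 to 0.80. The libraries share their depth with each gene. IFNT2 itself had a rho of 0.57 with depth, and the 5 genes had from 0.46 (AGR3) to 0.70 (MGST1). They were picked by their likeness to IFNT2 in these same libraries, where IFNT2 differs by shape. Their differences by shape therefore largely restate that choice and are no separate support. SCARB1, a receptor for high-density lipoprotein that takes up cholesterol, ran from 365 through a median of 469 to 594 CPM in tubular, from 148 through 350 to 472 CPM in ovoid and was 45.9 and 203 CPM in spherical libraries. It fell by 1.76 on the log2 scale in spherical against ovoid embryos (SE 0.454, edgeR adjusted p = 0.0178). FABP5 binds fatty acids within cells and had medians of 81.1 CPM in tubular and 55.1 CPM in ovoid libraries (log2 difference -0.63, adjusted p = 0.027). MGST1, a glutathione transferase of membranes, had medians of 268 and 129 CPM (log2 difference -0.80, adjusted p = 0.0379).

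The genes most opposed to IFNT2 in extraembryonic tissue were TMPRSS4 (rho -0.84), MORN3 (-0.83) and ALDH1L2 (-0.81). Their rho with depth ran from -0.72 (ALDH1L2) to -0.59 (TMPRSS4). They too were picked by their relation to IFNT2 in these libraries, so their differences by shape largely restate that choice. TMPRSS4, a serine protease of the cell surface, ran from 1.58 to 6.40 CPM in tubular and from 3.33 to 18.8 CPM in ovoid libraries, and was 60.8 and 70.6 CPM in spherical ones, with no overlap between the last 2 groups. ALDH1L2, a mitochondrial enzyme of folate metabolism, ran from 0.621 to 8.78 CPM, from 1.94 to 49.6 CPM and was 95.5 and 132 CPM in the same groups. It rose by 2.05 on the log2 scale in ovoid against tubular embryos (edgeR adjusted p = 0.0104) and by 2.36 in spherical against ovoid ones (adjusted p = 0.0386). PPARG was at place 99 of 9742 (rho 0.63) and ETS2 at place 2255 (rho 0.25).

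**Figure D5:**
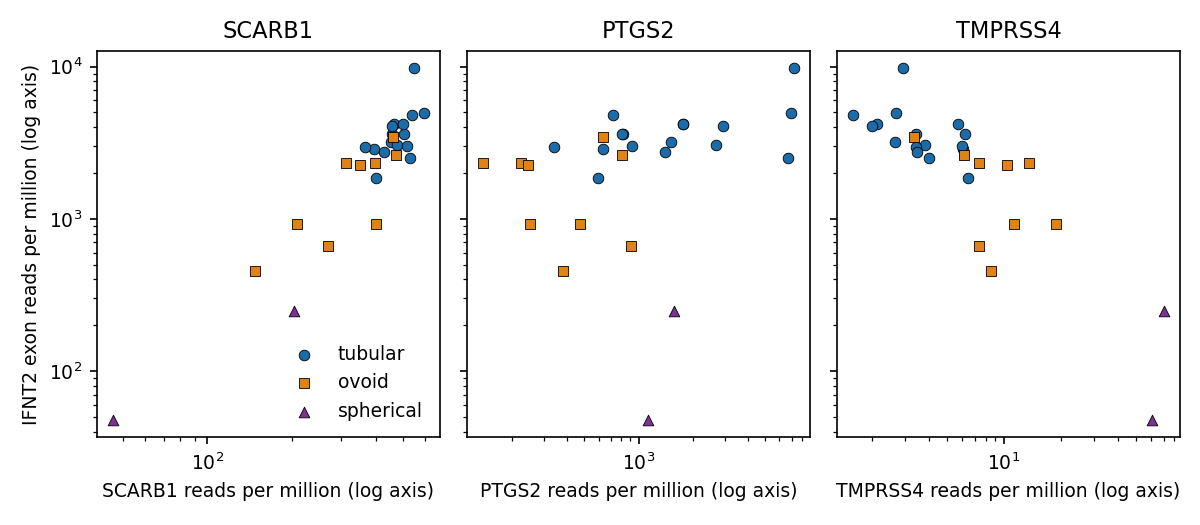
IFNT2 against SCARB1, PTGS2 and TMPRSS4 in CPM (log axes) over 27 extraembryonic libraries, by shape. The spherical libraries are lowest in IFNT2 and highest in TMPRSS4 (60.8 and 70.6 CPM), and one of them is lowest in SCARB1 (45.9 CPM).

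In the 22 discs the 5 genes most like IFNT2, among 9781, were SND1 (rho 0.92), HKDC1 (0.87), RPN2 (0.87), KRT7 (0.87) and UBTD1 (0.86), none of them among the 5 of extraembryonic tissue. KRT7, a keratin of simple epithelia, ran from 25.2 through a median of 140 to 234 CPM. RPN2, a subunit of the enzyme that attaches sugars to secreted proteins, varied little, from 532 to 815 CPM. The most opposed genes were WDR45B (-0.88), GALNT16 (-0.87) and PDYN (-0.82). PDYN, the precursor of dynorphin peptides, had a median of 9.76 CPM in discs and 0 reads in 24 of 27 extraembryonic libraries. PPARG was at place 42 (rho 0.78), ETS2 at place 769 (rho 0.51) and SOX2 at place 9711 (rho -0.64). IFNT2 in discs had a rho of 0.53 with depth.

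The share of reads that the table counts in the intron of the IFNT2 model, which may hold another copy, was also compared within embryos. Over 20 pairs with at least 100 IFNT2 exon reads in each part it was 17.8% ± 2.53 (SD, n = 20) in discs and 15.6% ± 1.90 (SD, n = 20) in extraembryonic tissue, and the disc was higher in 14 of 20 (permutation test on the pairs, two-sided, p = 0.00474). The same share over all genes was 9.05% in discs and 7.21% in extraembryonic tissue, with the disc higher in 20 of 20 (p = 2e-05, the smallest that 100000 resamples give). The share was thus higher in discs over all genes as well as in IFNT2.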

How the data were processed

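Messenger RNA of 53 libraries was sequenced from stranded TruSeq libraries, per the labels' protocols. The authors deposited whole-number exon read counts per gene, with unique exon and intron read counts and gene models beside them, per the file headers. Build UMD3.1 and DESeq2 1.10.1 are named in the submitters' processing notes, and no aligner is named in them, the labels or the headers. Groups came from the labels, 18541 of 24596 features carry a symbol, and of 1378 pairs of libraries 0 held identical counts. IFNT2 and the gene lists were chosen with earlier results of these data known.

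Comparisons were fitted across all genes with edgeR 4.0.16 (TMM scaling, filterByExpr, quasi-likelihood F test) in R 4.3.3, with Benjamini-Hochberg adjustment over all genes and a threshold of 0.05. SE is the log2 difference over the square root of F, and 95% intervals are 1.96 SE each way. Media and sex were fitted together within a tissue, shape with medium and sex, and tissue with the embryo as a block, since both parts come from 1 embryo. The library labelled EX HIGH PA replicate 9, whose sex was undetermined, does not enter fits that include sex. The undissected embryos entered no comparison. Libraries of 1 medium and cow share a flush, so p-values measure the spread between embryos that are not all independent. Alternatives used DESeq2 1.42.0, its size factors, no filter, unique reads, voom in limma 3.58.1, other terms, subsets and left-out libraries. Permutation tests used scipy 1.17.1. The scripts were tested on simulated data.

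Named were IFNT2, the type I interferon family, the 5 genes of highest and 3 of lowest Spearman's rho with IFNT2 in each tissue over libraries of at least 10000 reads, 12 listed genes where present, and up to 3 called genes of lowest p per list. ALDH1L2, JAK1, DDX58, JUNB, PPARG and other list members beyond this rule were named after their values were seen.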

Additional observations from a re-analysis of the deposited data

Results flagged for a closer look

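The levels of 11 groups of 4 to 10 libraries were searched for a library far from the rest at either end (Dixon's test at 95%), and 2 were found, where chance gives about 1 in 20 groups. The test used CPM and not their logarithm, and whether the flags hold on a log scale was not tested. The groups share libraries, so the rate of 1 in 20 is only a rough guide. EX HIGH PA replicate 7, from a tubular embryo, had 9740 CPM of IFNT2, the highest of the 10 EX HIGH PA libraries. It was flagged in this group of all shapes (gap over range 0.493, critical value 0.466). Among the 4 tubular EX HIGH PA libraries it was not flagged (0.780, critical value 0.829). The disc of the same embryo had 356 CPM. EX HIGH PA replicate 6, from an ovoid embryo and marked 2 in its name, had 3459 CPM, against 454 to 921 CPM in the other 3 ovoid EX HIGH PA libraries.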

How the results depend on the processing

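The higher level outside the disc kept its direction and call in all 13 alternatives, from 1.31 to 2.04 on the log2 scale. With no replicate block, so without pairing the parts by embryo, it was 1.42 (edgeR adjusted p = 3.88e-05), and the pairing changed no call of IFNT2 here.

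The ovoid and spherical differences kept their direction in all alternatives, and calls were lost in 9 of 30 and 3 of 10. For ovoid against tubular extraembryonic tissue these were -1.01 with the recipient cow as a replicate block, -1.02 with the plate row as a term (adjusted p = 0.058), -0.70 with the lane as a term, -1.24 without libraries marked 2, -0.57 within BASAL, -1.67 within HIGH PA, and -1.35, -1.19 and -0.97 without cow 07, 66 or 813. For spherical against ovoid they were -3.20 without EX HIGH PA replicate 10, -3.63 within HIGH PA (adjusted p = 0.132) and -3.01 without libraries marked 2 (adjusted p = 0.0788). Leaving out each of the 9 ovoid libraries in turn gave -1.35 to -1.002, and each of the 2 spherical ones -5.60 to -3.20. No tubular library was left out singly. A lane term could not be fitted for spherical embryos.

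Of the comparisons with no call, 4 changed sign. HIGH PA minus BASAL outside the disc was 0.24 without libraries marked 2, 0.0037 with shape as a term, 0.57 in tubular embryos and 0.28 in males, and in tubular discs it was 0.013. BASAL minus CONTROL in discs was -0.071 without libraries under 1000000 reads, and ran from -0.043 to 0.82 without 1 CONTROL library at a time (-0.027 without replicate 2). The disc shape by medium term was 0.084 with the cow as a block. In all of these the cause was not tested.

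Counts of called genes that differed over 1.5 times between edgeR and DESeq2 were 32 and 502 for tissue by shape, 6 and 41 for sex in discs and 838 and 516 for spherical against ovoid. Where edgeR called 0, DESeq2 called 17 for shape in discs, 2 for HIGH PA against BASAL in discs, 2 for shape by medium outside the disc and 1 in each extraembryonic comparison with CONTROL. Alternatives on lane, single cows, the mark 2, left-out ovoid libraries, the marker sum without keratins, ED BASAL replicate 12 and libraries under 1000000 reads, and the shape by medium terms, were chosen after seeing the data. Depth limits the lowest discs, since 58.8 CPM rests on 7 reads.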
